A study of Mus musculus with 18 samples.

Results

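Dppa3, Rhox6 and Rhox9, 3 genes known from germ cells, the early embryo and the placenta, were followed across 18 arrays of mouse embryonic stem cells. They were taken by gene symbol and chosen by their signal on these same arrays, since earlier results had placed them among the genes that were low in the nucleolin siRNA lines before any induction and, in part, higher after it. They are 3 of the 19057 genes named on the platform. Each has 1 probe, and all 3 probes passed the filter that kept 10557 genes. To be kept, a probe had to have a detection p-value under 0.05 in every replicate of some group. Rhox6 passed through its EGFP groups only, so it had to be lower in the groups that did not detect it. Because these values chose the genes, their levels and differences are given as a description with no test.

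Total RNA came from CGR8, mouse embryonic stem cells from strain 129P2/Ola, and was hybridised to Illumina Mouse-6 version 2 BeadChips with 1 colour per array. Every group carried a stably integrated siRNA that is switched on by tetracycline (Tc). The EGFP line targets green fluorescent protein and served as the control, and the Ncl-1 and Ncl-2 lines carry different siRNAs against nucleolin, an abundant RNA-binding protein of the nucleolus. Each line was grown without Tc or with Tc for 3 days, which gave 6 groups of 3 arrays: EGFP -Tc, EGFP +Tc, Ncl-1 -Tc, Ncl-1 +Tc, Ncl-2 -Tc and Ncl-2 +Tc. There was no group of parental cells without a construct. The labels give neither whether a line is 1 clone or a pool nor whether replicates are separate cultures, so a p-value measures the spread between these arrays, which may be technical.

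Dppa3, also called Stella, is a small maternal protein that marks primordial germ cells. It protects methylated cytosine in the zygote and can keep Uhrf1, the partner of the maintenance methyltransferase Dnmt1, away from chromatin. Rhox6 and Rhox9 are homeobox genes of the reproductive homeobox cluster on the X chromosome, expressed in placenta and germ cells and held silent by DNA methylation in many other tissues. Embryonic stem cells are known to express Dppa3 unevenly from cell to cell. In bulk RNA a lower signal cannot be told apart as fewer expressing cells or less RNA per cell.

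Mean intensity was 279.9 to 836.7 units per array, with the 6 arrays of replicate 3 at 624.9 to 836.7. The targeted transcript Ncl fell by 4.67 ± 0.36 (log2, SE) after Tc in the Ncl-1 line, which left 3.92% of its signal (limma adjusted p = 2.2e-06), and 4.83% was left in the Ncl-2 line (adjusted p = 4.2e-06). Without Tc, Ncl stood at 0.40 ± 0.36 (Ncl-1) and 0.06 ± 0.36 (Ncl-2) relative to the EGFP line. Of 21 pluripotency genes on the platform, 20 were detected on all 18 arrays, and Pou5f1, Sox2, Nanog and Zfp42, which define this cell type, passed the limma test in none of the 6 comparisons. With the replicate number as a block, Sox2 was higher with Tc by 0.80 (Ncl-1, adjusted p = 0.0043) and 0.60 (Ncl-2, adjusted p = 0.0232), and Pou5f1 fell by 0.53 in Ncl-2 (adjusted p = 0.0415). Of the 20 pluripotency genes kept, Fbxo15 rose with Tc in both nucleolin lines and Lin28a fell, where 5.38% and 6.0% of all genes rose and 2.74% and 3.14% fell. In Ncl-1 the Fbxo15 call was lost when any 1 of 3 arrays was left out (up to 0.0845), with the authors' normalized table (0.0743) and with the mean of its probes (0.0702). With the block 2 rose and 3 fell in each line, where 14.2% and 13.9% of all genes rose and 12.5% and 13.1% fell. Between uninduced lines 0 of the 20 passed (3 in each line at an unadjusted p under 0.05), and with the block 2 were higher in Ncl-1 and 3 higher and 1 lower in Ncl-2. Over all genes the block fit called 4.11% (Ncl-1) and 5.76% (Ncl-2) higher and 4.51% and 6.43% lower. The medians of the 20 between uninduced lines were 0.28 (Ncl-1) and 0.26 (Ncl-2), above the 0.00 over all genes, with 3 and 4 of the 20 below 0.

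Dppa3 (Entrez Gene 73708, chromosome 6) was bright in control cells, 8.29-fold dimmer in uninduced Ncl-1 cells and close to the control level again in Ncl-2 cells after Tc. In EGFP -Tc cells its log2 signal was 9.84, 9.08 and 9.51 in replicates 1, 2 and 3, and in EGFP +Tc cells 9.25, 9.54 and 9.65. The Ncl-1 line had 6.71, 6.47 and 6.11 without Tc and 8.72, 8.14 and 9.54 with Tc. Ncl-2 cells read 7.56, 7.56 and 6.22 without Tc, and 10.05, 9.48 and 8.64 with it. All 6 uninduced nucleolin arrays (6.11 to 7.56) thus lay below all 12 other arrays, whereas 3 of the 6 induced nucleolin arrays lay above the lowest EGFP array at 9.08. The probe was detected on all 18 arrays. In the deposited intensities it read 49.6 to 161.3 units on the uninduced nucleolin arrays and 363.6 to 1179.5 on the EGFP arrays.

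Group means ordered the Dppa3 levels as 9.48 ± 0.38 (SD, n = 3) in EGFP -Tc, 9.48 ± 0.21 in EGFP +Tc, 9.39 ± 0.71 in Ncl-2 +Tc, 8.80 ± 0.70 in Ncl-1 +Tc, 7.11 ± 0.78 in Ncl-2 -Tc and 6.43 ± 0.30 in Ncl-1 -Tc. Each of the first 4 groups overlapped its neighbour, and so did the last pair, so the only step between neighbours without overlap lay between the induced and the uninduced nucleolin groups.

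Rhox6 (Entrez Gene 19202, chromosome X) was a dim gene that was detected in control cells and mostly not in either nucleolin line. Its log2 signal was 5.96, 5.74 and 5.84 in EGFP -Tc and 5.90, 5.89 and 6.20 in EGFP +Tc, detected on all 6 arrays. Uninduced Ncl-1 cells gave 4.67, 4.65 and 4.82 and uninduced Ncl-2 cells 4.83, 4.79 and 4.65, with 0 of 6 arrays detected. Induced Ncl-1 cells gave 4.67, 5.23 and 5.14, with 2 of 3 arrays detected, and induced Ncl-2 cells 5.14, 4.89 and 4.76, with 0 of 3 detected. All 12 nucleolin arrays therefore lay below the 6 EGFP arrays, whatever the Tc treatment. Where no array of a group detects a probe, only a bound can be given, and it sets each such array at the lowest signal detected on it. Rhox6 was at least 1.62-fold higher in EGFP -Tc than in Ncl-1 -Tc, at least 1.60-fold higher than in Ncl-2 -Tc, and at least 1.83-fold higher in EGFP +Tc than in Ncl-2 +Tc.

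Rhox9 (Entrez Gene 104384, chromosome X), a close relative of Rhox6 in the same cluster, was detected on all 18 arrays and lay between these patterns. Its log2 signal was 7.54, 7.45 and 7.90 in EGFP -Tc and 7.47, 7.60 and 7.69 in EGFP +Tc. Ncl-1 cells read 5.95, 6.12 and 5.81 without Tc, and 6.23, 6.65 and 6.64 with it. Ncl-2 cells read 5.53, 6.15 and 5.87 without Tc, and 7.02, 6.40 and 6.68 with it. The induced nucleolin arrays (6.23 to 7.02) lay above the uninduced ones (5.53 to 6.15) and below the EGFP arrays (7.45 to 7.90), with no overlap on either side. The means fell in the order 7.63 ± 0.24 (EGFP -Tc), 7.59 ± 0.11 (EGFP +Tc), 6.70 ± 0.31 (Ncl-2 +Tc), 6.51 ± 0.24 (Ncl-1 +Tc), 5.96 ± 0.16 (Ncl-1 -Tc) and 5.85 ± 0.31 (Ncl-2 -Tc), where the members of each of these 3 pairs overlapped.

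**Figure D1:**
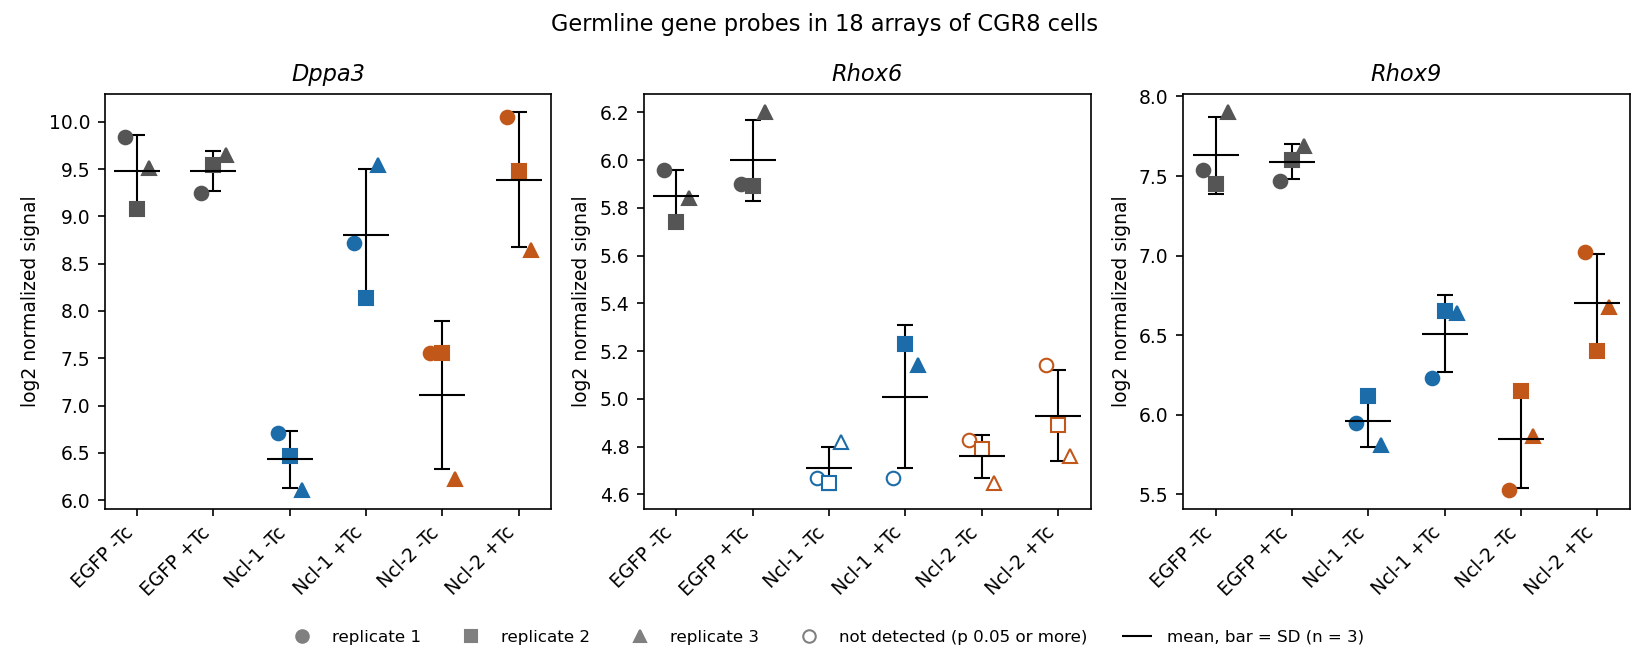
Log2 normalized signal (vertical axis, with its own range for each gene) of Dppa3, Rhox6 and Rhox9 on 18 arrays, by group. Filled symbols are arrays that detected the probe, open symbols arrays that did not, and bars are the mean ± SD of 3 arrays. The 6 uninduced nucleolin arrays are the lowest for Dppa3 (6.11 to 7.56), and for Rhox6 and Rhox9 all 12 nucleolin arrays lie below the EGFP arrays.

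Replicate scatter differed between the 3 genes. The within-group SD was 0.56 for Dppa3, 0.18 for Rhox6 and 0.24 for Rhox9, against a median of 0.42 over all genes. The small SD of Rhox6 includes groups whose signal was at the detection limit, where values cannot move lower.

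Between the uninduced lines, all 3 genes were lower in each nucleolin line than in the EGFP line, with no overlap between arrays. Over all genes 6.72% were lower without overlap in the Ncl-1 line and 9.09% in the Ncl-2 line, and since this contrast chose the genes nothing is read from their count. Dppa3 differed by -3.05 ± 0.43 (log2, SE) in the Ncl-1 line, the most negative difference among 10557 genes, which left 12.1% of the control signal. In the Ncl-2 line it differed by -2.37 ± 0.43, at rank 3 from the lowest, with 19.4% left. Replicates gave -3.13, -2.62 and -3.40 in the Ncl-1 line and -2.28, -1.53 and -3.29 in the Ncl-2 line, so replicate 3 was the lowest in both.

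Rhox9 differed by -1.67 ± 0.22 in the Ncl-1 line and -1.78 ± 0.22 in the Ncl-2 line, at ranks 15 and 9 from the lowest. Its signal was thus 31.4% and 29.2% of the control, near equal in both lines. Rhox6 was not detected in either uninduced nucleolin line, so the bounds of at least 1.62-fold and 1.60-fold stand in place of a difference. Set against each other without Tc, the Ncl-1 line was lower than the Ncl-2 line by -0.69 ± 0.43 for Dppa3, and the groups overlapped. That value was -1.13 without Ncl-2 -Tc replicate 3, the lowest array of its group, and -0.46 without Ncl-2 -Tc replicate 1. For Rhox9 that difference was 0.11 ± 0.22, also with overlap. Neither gene separated the uninduced nucleolin lines, and Rhox6 was detected in neither, where 1.80% of all genes were higher and 1.00% lower without overlap.

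After 3 days of Tc, Dppa3 was higher in both nucleolin lines, while its mean in the EGFP line was the same with and without Tc. Its log2 change was 2.37 ± 0.43 in the Ncl-1 line, 5.18-fold, with 2.02, 1.67 and 3.44 in replicates 1, 2 and 3. It was 2.28 ± 0.43 in the Ncl-2 line, 4.85-fold, with 2.49, 1.92 and 2.42. The Ncl-1 value leans on replicate 3: the mean of replicates 1 and 2 alone was 1.84. In the EGFP line the replicates went both ways, -0.59, 0.45 and 0.14, around equal means of 9.48. The change in the Ncl-1 line exceeded that in the EGFP line by 2.37 ± 0.61 and the change in the Ncl-2 line by 2.28 ± 0.61, while the nucleolin lines differed from each other by 0.10 ± 0.61.

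Rhox9 was also higher with Tc in both nucleolin lines, by a smaller step. Its log2 change was 0.55 ± 0.22 in the Ncl-1 line, 1.46-fold, and 0.85 ± 0.22 in the Ncl-2 line, 1.80-fold. All 3 replicates were higher in each line, at 0.29, 0.53 and 0.83 for Ncl-1 and 1.49, 0.25 and 0.81 for Ncl-2. The nearest arrays of the induced and uninduced groups were 0.11 apart in the Ncl-1 line and 0.25 in the Ncl-2 line, a narrow margin against a within-group SD of 0.24. In the EGFP line its change was -0.04 ± 0.22.

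Rhox6 changed by 0.15 ± 0.19 in the EGFP line, with overlapping groups. In the Ncl-1 line it went from 0 to 2 of 3 arrays detected, and in the Ncl-2 line it was detected in neither group, so no change is given for either. Without overlap, then, 2 of the 3 genes were higher with Tc in each nucleolin line, where 12.0% (Ncl-1) and 12.4% (Ncl-2) of all genes were, and 0 of 3 in the EGFP line, where 0.673% were higher and 1.17% lower. These shares too come from contrasts that chose the genes.

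**Figure D2:**
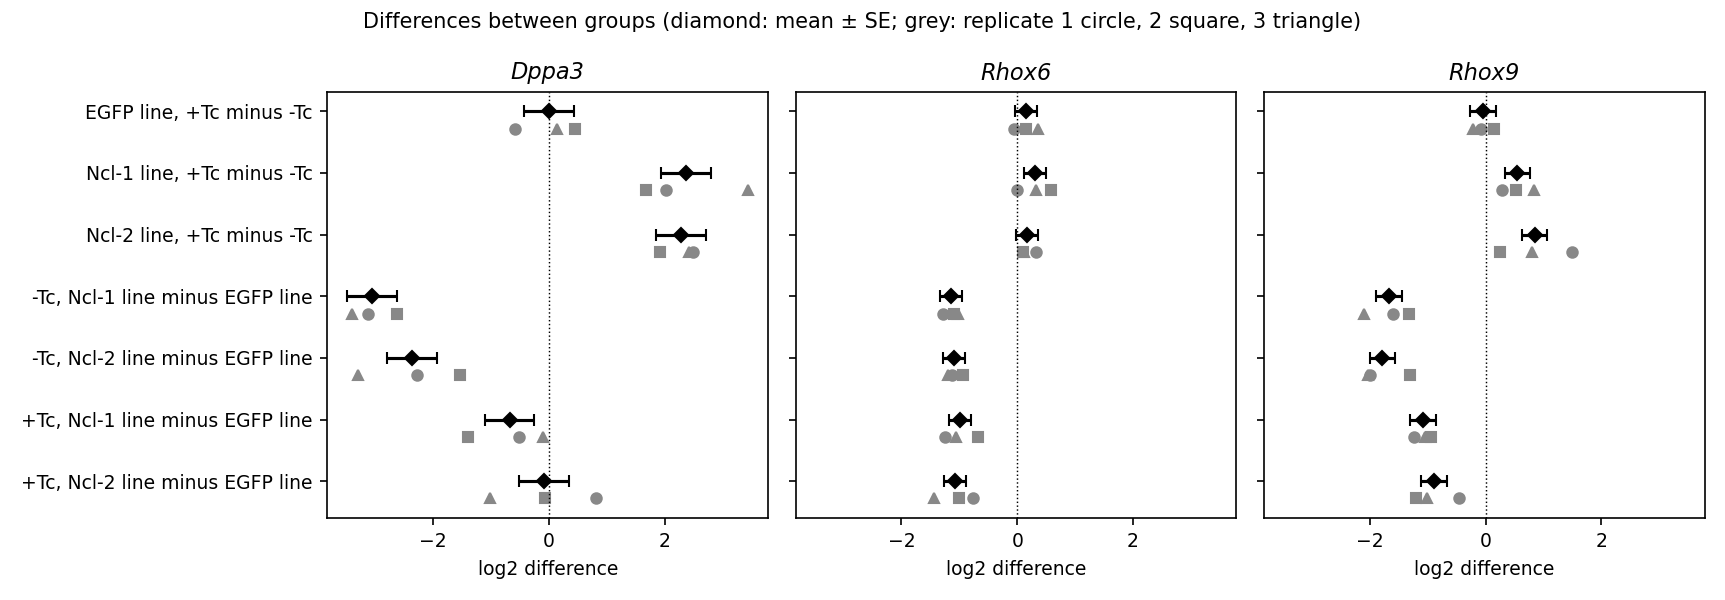
Log2 difference (horizontal axis) of Dppa3, Rhox6 and Rhox9 in 7 comparisons between groups. Black diamonds are the mean difference with its SE, and grey symbols are the differences of replicates 1 (circle), 2 (square) and 3 (triangle). Dppa3 lies near -3.05 and -2.37 between uninduced lines and at 2.37 and 2.28 with Tc, while Rhox9 remains below 0 in the comparisons of induced lines. Rhox6 points that involve uninduced nucleolin groups or Ncl-2 +Tc rest on undetected signals and are no measured differences.

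The change with Tc and the difference between uninduced lines share the uninduced arrays of each nucleolin line, so they are set side by side and not related to each other. Dppa3 changed with Tc by 2.37 beside an uninduced difference of -3.05 in the Ncl-1 line, and by 2.28 beside -2.37 in the Ncl-2 line. For Rhox9 these values were 0.55 beside -1.67 and 0.85 beside -1.78. Both contrasts chose the genes, so no share recovered is read from these values. Comparing induced lines only, which uses no uninduced array, Dppa3 differed from the EGFP line by -0.68 ± 0.43 (Ncl-1) and -0.09 ± 0.43 (Ncl-2) with overlapping groups. Rhox9 still differed by -1.08 ± 0.22 and -0.89 ± 0.22, without overlap. Rhox6 differed by -0.99 ± 0.19 in Ncl-1, where 2 of 3 arrays detected it, also without overlap, and for Ncl-2 the bound of at least 1.83-fold applies.

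**Figure D3:**
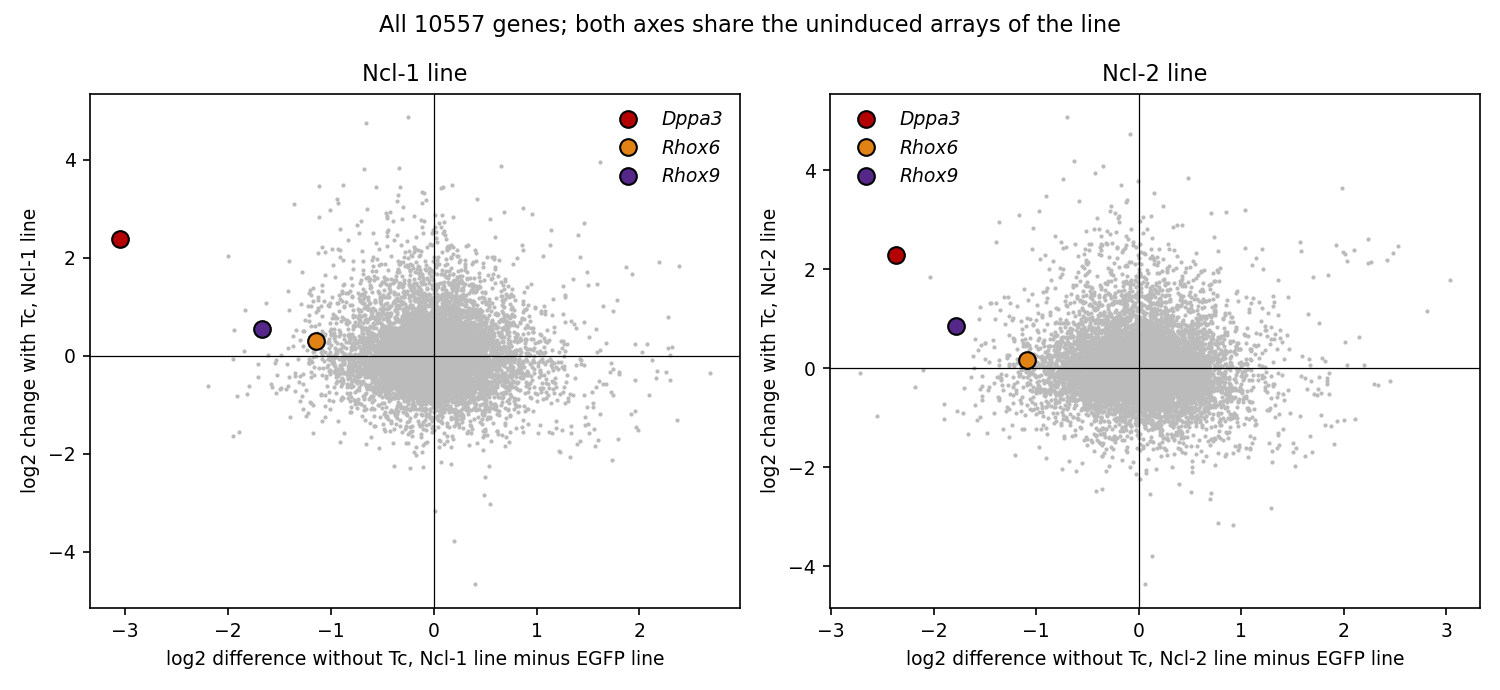
Log2 change with Tc (vertical axis) against the log2 difference from the EGFP line without Tc (horizontal axis) for 10557 genes in grey, with Dppa3, Rhox6 and Rhox9 coloured. Both axes use the uninduced arrays of the line, so their relation is not read. Dppa3 lies at the far left in the Ncl-1 panel (-3.05) and at rank 3 from the left in the Ncl-2 panel (-2.37), above 0 in both.

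Of the other genes in the Rhox cluster, 7 were on the platform and 3 were kept by the filter, Rhox5, Rhox10 and Rhox13, each detected on all 18 arrays. None passed the limma test in any of the 6 comparisons, with or without the replicate number as a block, and at an unadjusted p under 0.05 there was 1 in each comparison of an uninduced nucleolin line with the EGFP line and 0 in the other comparisons. Rhox5, the founding member of the cluster, differed between uninduced lines by -0.51 ± 0.39 (Ncl-1) and -0.32 ± 0.39 (Ncl-2). Rhox10, which acts in spermatogonial stem cells, differed by -0.77 ± 0.27 and -0.76 ± 0.27. Rhox13 differed by 0.52 ± 0.63 and 0.73 ± 0.63. Rhox1, Rhox8, Rhox11 and Rhox12 were not detected on all arrays of any group. Rhox6 and Rhox9 are paralogs and a Dppa3 pseudogene is annotated on the X chromosome, and whether probes picked up related transcripts was not tested.

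The genes named Dppa share the way they were found in pluripotent cells rather than one protein family. Dppa2 and Dppa4, chromatin proteins that act together, and Dppa5a, an RNA-binding protein, were kept, and 0 of these 3 passed the limma test in any comparison, with or without the block or at an unadjusted p under 0.05. Dppa5a stood at 15.46 in EGFP -Tc and 15.49 in Ncl-1 -Tc on the log2 scale, and its changes with Tc were -0.01 ± 0.15 (Ncl-1) and -0.09 ± 0.15 (Ncl-2). Dppa4 changed by 0.06 ± 0.17 and 0.11 ± 0.17. Dppa2, at 0.27 ± 1.25 and -0.14 ± 1.25 between uninduced lines, varied widely between replicates, and these SEs do not take the pairing of arrays into account. With the block its limma adjusted p was 0.603 and 0.757 between uninduced lines. Its changes with Tc were -0.47 (Ncl-1) and 0.29 (Ncl-2), with 0.183 and 0.435 under the block.

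Next to Dppa3 on chromosome 6, 8 of 11 neighbours on the platform were measured, among them the pluripotency factors Nanog and Gdf3. In the comparisons of uninduced lines 6 of the 8 were below 0 in the Ncl-1 line and 7 of 8 in the Ncl-2 line, with medians of -0.42 and -0.39 against 0.00 over all genes, and 0 passed the limma test (1 in each line at an unadjusted p under 0.05). With the replicate number as a block 2 of 8 passed as lower in each line, where 4.51% (Ncl-1) and 6.43% (Ncl-2) of all genes did. Mfap5, a microfibril protein, had the most negative difference, -1.35 ± 0.31 (Ncl-1, limma adjusted p = 0.0617, with the block 0.0029) and -1.20 ± 0.31 (Ncl-2, adjusted p = 0.0931, with the block 0.00523). Gdf3 differed by -0.33 ± 0.20 and -0.24 ± 0.20 and Nanog by 0.27 ± 0.77 and 0.12 ± 0.77. With Tc, Apobec1, a cytidine deaminase that edits RNA, changed by 1.19 ± 0.41 (Ncl-1, adjusted p = 0.0929) and 1.28 ± 0.41 (Ncl-2, adjusted p = 0.0652), and passed with the block (4.4e-05 and 2.0e-05). With the block 1 neighbour in Ncl-1 and 2 in Ncl-2 were called higher, where 14.2% and 13.9% of all genes were. Dppa3 was chosen by its difference of -3.05 (Ncl-1) and -2.37 (Ncl-2), so nothing is read from its distance to these neighbours.

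Chromosome 6 as a whole was lower in both uninduced nucleolin lines, a description added after the values had been seen. The median over its 495 genes was -0.46 in the Ncl-1 line, with 86.5% of them below 0, and -0.44 in the Ncl-2 line, with 84.2% below 0. Each replicate gave nearly the same median, from -0.47 to -0.45 and from -0.45 to -0.39. Chromosome 11 had medians of -0.32 and -0.30 and chromosome 8 of -0.27 and -0.22, and every other chromosome lay between -0.06 and 0.14. Dppa3, which was chosen by this difference, was the lowest of the 495 genes in both lines. The X chromosome, which carries the Rhox genes, had medians of -0.01 and -0.06 over 352 genes. What part the chromosome 6 shift has in the Dppa3 difference was not tested. With Tc the chromosome 6 median was -0.08 in the Ncl-1 line and -0.02 in the Ncl-2 line, beside 2.37 and 2.28 for Dppa3. Since Dppa3 was chosen by this change too, nothing is read from its distance to the median.

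**Figure D4:**
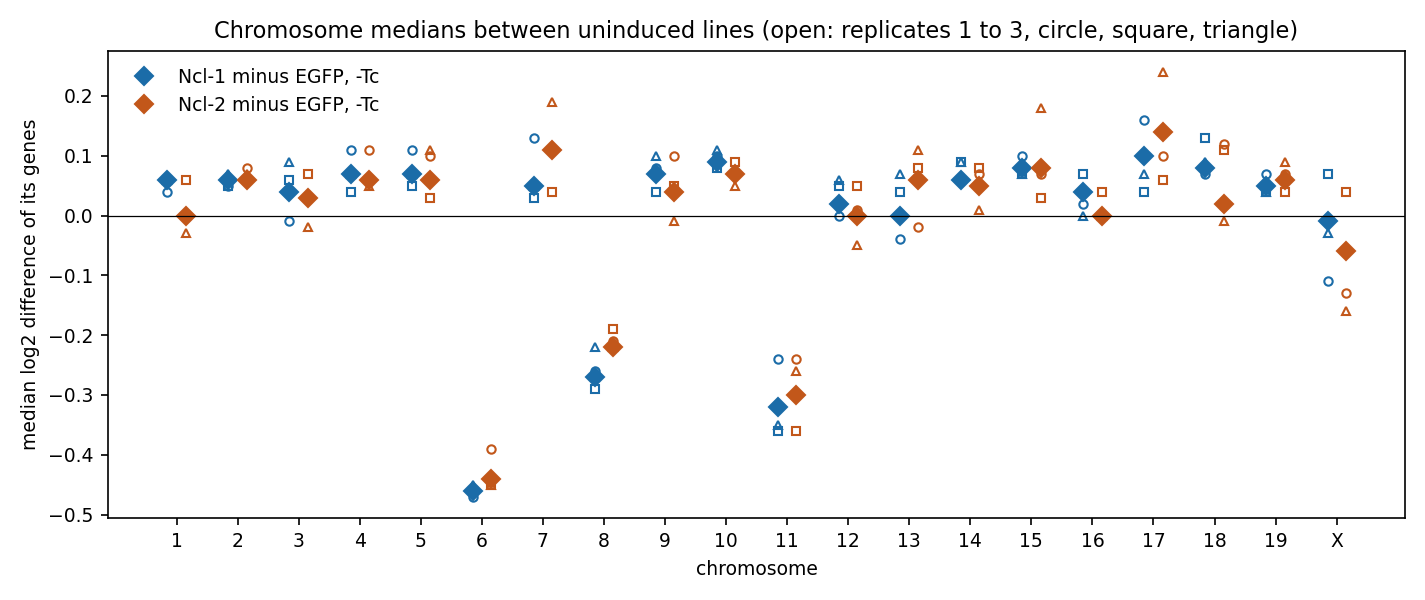
Median log2 difference between uninduced lines (vertical axis) of the genes on each chromosome (horizontal axis). Diamonds are medians of the group differences and open symbols those of replicates 1 (circle), 2 (square) and 3 (triangle). Chromosome 6 stands lowest in both lines (-0.46 and -0.44), followed by chromosomes 11 and 8, while X lies near 0.

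Apart from Rhox6 and Rhox9, 350 X-linked genes were measured, of which 5 were called lower and 0 higher in uninduced Ncl-1 cells than in EGFP cells, and 4 lower and 0 higher in Ncl-2. Over all genes 0.398% were called lower in Ncl-1 and 0.464% in Ncl-2. The X-linked genes named here were chosen after their values were seen. Nxf3, an RNA export factor known from testis, differed by -1.84 ± 0.27 in Ncl-1 (limma adjusted p = 0.00449) and -1.70 ± 0.27 in Ncl-2 (adjusted p = 0.00845), and was detected on 1 of 3 arrays in each of these groups. Ct55, a cancer and testis antigen gene, differed by -1.95 ± 0.43 (adjusted p = 0.0439) and -2.55 ± 0.43 (adjusted p = 0.013). The changes of Ct55 with Tc were -1.64 and -0.97, unlike the positive values of Rhox9. Map7d2, Rab33a and Was were the others. Was passed in Ncl-1 only (-1.21 ± 0.25, and -0.93 ± 0.25 in Ncl-2, limma adjusted p = 0.0293 and 0.104). The direct comparison of the uninduced nucleolin lines called 0 of 10557 genes. The Nxf3 calls were lost under median scaling (adjusted p = 0.0622 and 0.0669). Except for Nxf3 in Ncl-1, each of these calls was lost without 1 or more single arrays, for Ct55 without any 1 of 13 arrays in Ncl-1 (adjusted p up to 0.203) and without EGFP -Tc replicate 1 or 3 or Ncl-2 -Tc replicate 1 or 2 in Ncl-2 (up to 0.0648).

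In the fit without the block, genes of germ cell development passed with Tc in the nucleolin lines but not between uninduced lines. Of 21 measured genes for germ cell specification and oocytes, 3 rose and 1 fell with Tc in the Ncl-1 line and 2 rose and 1 fell in the Ncl-2 line, where 5.38% and 6.0% of all genes rose and 2.74% and 3.14% fell. With the replicate block 5 rose and 2 fell, and 4 rose and 2 fell, where 14.2% and 13.9% of all genes rose and 12.5% and 13.1% fell. Their medians were 0.00 and 0.08, beside -0.04 and -0.05 over all genes. Tfap2c, a transcription factor needed for primordial germ cells and also for trophoblast, rose by 2.90 ± 0.46 (Ncl-1, limma adjusted p = 9.1e-04) and 2.82 ± 0.46 (Ncl-2, adjusted p = 0.00109), and stood at -0.46 ± 0.46 and -0.44 ± 0.46 between uninduced lines, where it did not pass. Lin28a, an RNA-binding repressor of let-7 maturation, fell by 1.36 (adjusted p = 0.00786) and 1.61 (adjusted p = 0.0022). Both calls held in both lines without any single array. Without replicate 2 in all groups both were lost in both lines (adjusted p = 0.0939 to 0.167). Without replicate 1 Tfap2c was lost in both (0.0749 and 0.0651) and Lin28a in Ncl-1 (0.0934). Between uninduced lines 0 of the 21 passed (3 in Ncl-1 and 4 in Ncl-2 at an unadjusted p under 0.05), and with the block 1 was higher and 1 lower in Ncl-1 and 2 were higher and 2 lower in Ncl-2. Over all genes the block fit called 4.11% and 5.76% higher and 4.51% and 6.43% lower.

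Tdrd5, a Tudor domain protein of male germ cells, was the gene of this list with the pattern nearest to Dppa3, a remark made after its values were seen. It was at 6.57 in EGFP -Tc, 5.39 in Ncl-1 -Tc and 5.42 in Ncl-2 -Tc, and at 6.51 and 6.37 after Tc in these lines. It rose by 1.11 ± 0.28 (limma adjusted p = 0.0211) and 0.95 ± 0.28 (adjusted p = 0.0443). Only 1 of 3 uninduced arrays detected it in each nucleolin line, and Tdrd5 no longer passed in the first line when Ncl-1 -Tc replicate 1 or 2 or Ncl-1 +Tc replicate 2 or 3 was left out (adjusted p up to 0.106) and in the second line when any 1 of 14 arrays was (up to 0.155). Its difference between uninduced lines was -1.17 ± 0.28 and -1.15 ± 0.28 (adjusted p = 0.066 and 0.069, with the block 0.00818 and 0.00809). Ifitm1, a membrane protein of early germ cells, rose in the Ncl-1 line by 0.97 ± 0.28 (adjusted p = 0.041), a call lost when any 1 of 10 arrays was left out (up to 0.165).

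Of 24 measured germline genes that DNA methylation is known to silence, 0 rose with Tc in either nucleolin line, while 2 fell in Ncl-1 and 3 in Ncl-2, where 2.74% and 3.14% of all genes fell. With the block 10 and 11 fell, where 12.5% and 13.1% of all genes did, and 1 and 0 rose. The medians were -0.59 and -0.60, with 18 of 24 below 0 in each line. Mov10l1, a helicase of the piRNA pathway, fell in both, by 1.02 (limma adjusted p = 0.0189, lost without Ncl-1 -Tc replicate 2 or 3 or Ncl-1 +Tc replicate 3, up to 0.0935) and 1.42 (adjusted p = 0.00199). The other calls were Mageb4 in Ncl-1 (-1.24 ± 0.34, adjusted p = 0.0334) and Tdrkh (-1.13 ± 0.25, adjusted p = 0.00948) and Stag3 (-0.76 ± 0.18, adjusted p = 0.0152) in Ncl-2. Each of these 3 was lost without 1 or more arrays, 5, 1 and 3 respectively. Between uninduced lines 0 of the 24 passed with limma (6 in Ncl-1 and 5 in Ncl-2 at an unadjusted p under 0.05, and with the block 3 higher and 3 lower, and 2 higher and 3 lower), and the medians were 0.27 and 0.09, above the level of all genes. Of all genes 4.11% and 5.76% were called higher with the block and 4.51% and 6.43% lower.

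**Figure D5:**
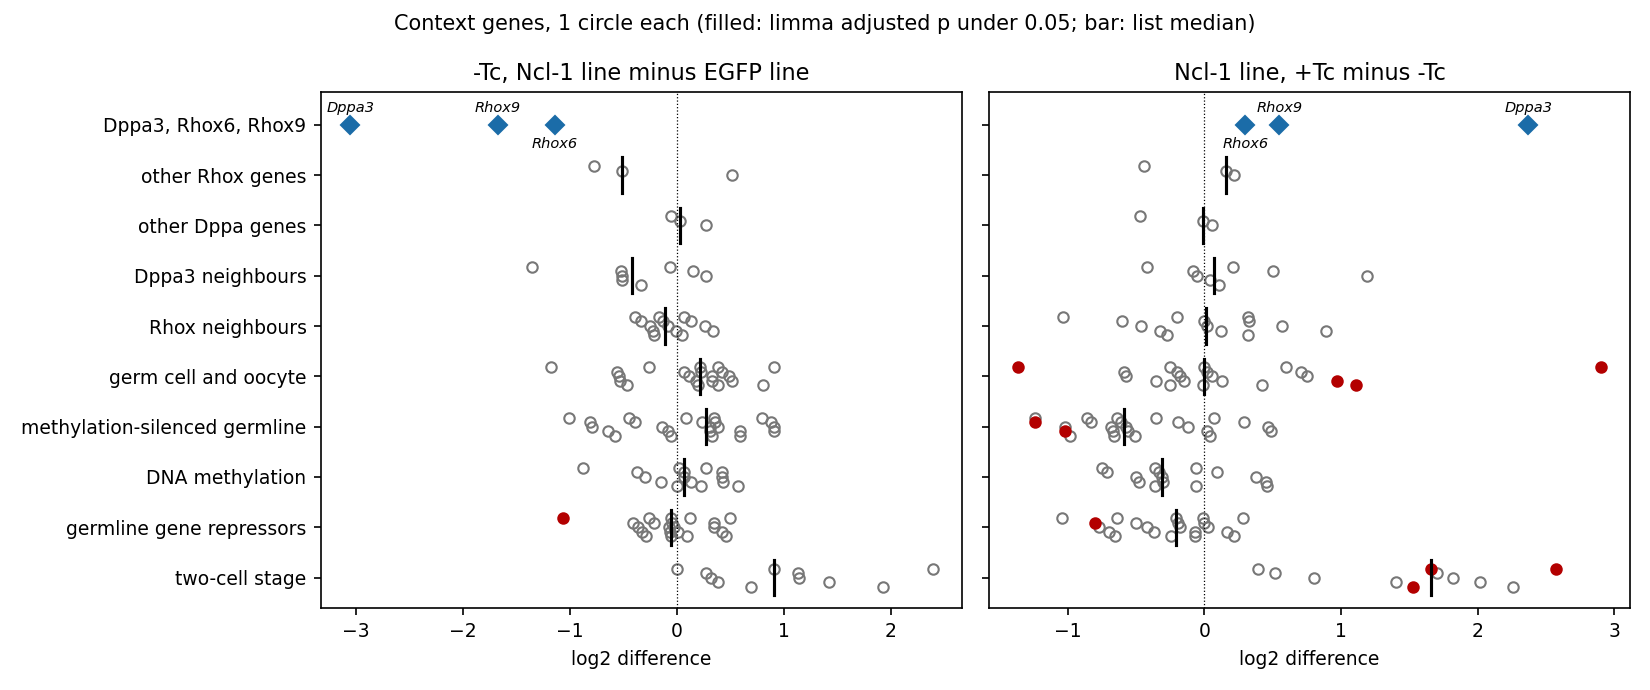
Log2 differences (horizontal axis) of the genes of 9 context lists, 1 circle per gene, between the uninduced Ncl-1 and EGFP lines and with Tc in the Ncl-1 line, beside Dppa3, Rhox6 and Rhox9 as diamonds. Filled circles passed the limma test at an adjusted p under 0.05 and bars are list medians. With Tc the two-cell-stage genes have a median of 1.66 and the methylation-silenced germline genes of -0.59.

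Of the DNA methylation machinery, 15 genes were measured and 0 passed the limma test in any of the 6 comparisons (0 to 2 at an unadjusted p under 0.05). With the block 2 fell with Tc in Ncl-1 and 3 in Ncl-2, where 12.5% and 13.1% of all genes did. In uninduced Ncl-2 cells 1 was lower with the block, where 6.43% of all genes were. Uhrf1, which recruits Dnmt1 to replicated DNA and which Dppa3 can bind, changed by -0.75 ± 0.54 in Ncl-1 (limma adjusted p = 0.515, with the block 0.00335) and -0.62 ± 0.54 in Ncl-2 (adjusted p = 0.633, with the block 0.011). Dnmt1 changed by 0.09 ± 0.47 and 0.18 ± 0.47. The new methyltransferase Dnmt3b and its cofactor Dnmt3l changed by -0.36 ± 0.22 and -0.06 ± 0.21 in Ncl-1, and the demethylating enzyme Tet1 by -0.36 ± 0.39. Dnmt3a was not kept by the detection filter and Tet2 was not analysed here. Prdm14, which keeps methyltransferases low in naive cells, changed by -0.57 ± 0.47 (adjusted p = 0.597, with the block 0.0461) and -0.54 ± 0.47 (adjusted p = 0.63, with the block 0.0554).

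Among 21 measured repressors of germline genes, Cbx3 passed in 4 comparisons and no other gene passed in any. Cbx3, a heterochromatin protein encoded on chromosome 6, was lower between uninduced lines by 1.06 in Ncl-1 (limma adjusted p = 0.0257) and 0.97 in Ncl-2 (adjusted p = 0.0438), and fell further with Tc, by 0.80 (adjusted p = 0.0297) and 0.89 (adjusted p = 0.0154). Leaving out single arrays ended these calls in 6, 15, 5 and 3 cases, with adjusted p up to 0.166. With the mean of its kept probes all 4 Cbx3 calls were lost (adjusted p = 0.364, 0.591, 0.455 and 0.371), at values of -0.93, -0.66, -0.58 and -0.66, and with the authors' table all but the Tc change in Ncl-2 (adjusted p = 0.0713, 0.0982 and 0.0754). With the block 6 and 4 of the 21 fell with Tc, where 12.5% and 13.1% of all genes did. Between uninduced lines 1 and 5 were lower with the block, where 4.51% and 6.43% of all genes were. Zbtb33, a methyl-binding repressor that neighbours the Rhox cluster, changed by 0.32 ± 0.76 and 0.56 ± 0.76. Of 14 measured Rhox neighbours, Septin6 alone passed, falling by 1.24 in Ncl-2 (adjusted p = 0.0407, lost when any 1 of 10 arrays was left out, up to 0.187). With the block 1 of these neighbours rose and 2 fell in Ncl-1, and 2 rose and 2 fell in Ncl-2. Over all genes 14.2% and 13.9% rose and 12.5% and 13.1% fell.

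Genes of the two-cell stage are known to be expressed by a small share of embryonic stem cells. Of 11 measured, 3 rose with Tc in Ncl-1 and 6 in Ncl-2, where 5.38% and 6.0% of all genes rose, with medians of 1.66 and 2.09. With the block 8 and 10 rose, where 14.2% and 13.9% of all genes did. Between uninduced lines the medians were 0.91 and 1.11, and 0 in Ncl-1 and 2 in Ncl-2 passed as higher, where 0.587% and 0.464% of all genes did. With the block 2 and 5 passed as higher, beside 4.11% and 5.76% of all genes. Zscan4c, a zinc finger gene that marks these cells, was higher in uninduced Ncl-2 cells by 3.04 ± 0.63 (limma adjusted p = 0.0313), lost without any EGFP -Tc array or without Ncl-2 -Tc replicate 1 or 2 (up to 0.146). It was 1.78 with the mean of its kept probes (adjusted p = 0.219), and the call was also lost without the detection filter (0.0508). Pramel16 was the other, at 2.24 ± 0.47 (adjusted p = 0.0347), lost without any EGFP -Tc or Ncl-2 -Tc array (up to 0.156). With Tc, Tdpoz2 rose by 1.53 ± 0.43 (adjusted p = 0.0368, lost when any 1 of 7 arrays was left out, up to 0.167) and 2.09 ± 0.43 (adjusted p = 0.00564). In Ncl-2 Tdpoz4, Pramel16 and Tmem92 rose by 2.33 ± 0.52, 2.12 ± 0.47 and 2.35 ± 0.61 (adjusted p = 0.0102, 0.0104 and 0.0237). Each of these calls was lost without 1 or more Ncl-2 arrays. Their changes in Ncl-1 were 1.70, 1.66 and 2.02 (adjusted p = 0.0572, 0.041 and 0.0557). Tcstv1 rose by 2.57 ± 0.66 in Ncl-1 and 2.50 ± 0.66 in Ncl-2 (adjusted p = 0.0243 and 0.0258). Zfp352 rose by 1.68 ± 0.44 in Ncl-2 (adjusted p = 0.0253) and did not pass in Ncl-1 (0.52 ± 0.44). For Tcstv1, Zfp352 and Pramel16 in Ncl-1, leaving out arrays was not examined.

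Markers of other cell types that express Rhox genes or Dppa3 were examined alongside. Of 22 trophoblast and placenta genes on the platform, 5 were detected on all 18 arrays and 4 on none (Prl2c2, Tpbpa, Sult1e1 and Syna). The summed normalized signal of the 10 kept by the filter was 3276.3 to 5594.4 in the EGFP groups. It was 2625.7 to 4551.7 in the uninduced and 1747.8 to 4442.4 in the induced nucleolin groups. Bright genes weigh most in this sum, among them Phlda2 at a log2 signal of 11.19 in Ncl-1 -Tc. Of the 10 kept, 2 rose and 1 fell with Tc in Ncl-1 and 3 rose and 1 fell in Ncl-2. Over all genes 5.38% and 6.0% rose and 2.74% and 3.14% fell. With the block 3 rose and 1 fell in each line, where 14.2% and 13.9% of all genes rose and 12.5% and 13.1% fell. Krt7, a keratin of simple epithelia and trophoblast, rose by 3.44 ± 0.47 (limma adjusted p = 3.0e-04) and 4.09 ± 0.47 (adjusted p = 6.7e-05), calls that held without any single array. Without replicate 2 in all groups the Krt7 call in Ncl-1 was lost (adjusted p = 0.0595). Krt19 rose by 2.02 ± 0.54 (adjusted p = 0.0308) and 2.31 ± 0.54 (adjusted p = 0.0137), lost when any 1 of 5 (Ncl-1) or 3 (Ncl-2) arrays was left out (up to 0.122). Ascl2, a regulator of trophoblast progenitors, rose in Ncl-2 by 1.21 ± 0.26 (adjusted p = 0.00911), and the imprinted gene Phlda2 fell in Ncl-1 by 1.16 (adjusted p = 0.0289, lost when any 1 of 5 arrays was left out, up to 0.103). In Ncl-2 Phlda2 fell by 1.41 (adjusted p = 0.00904). Between uninduced lines 0 of the 10 passed, also with the block or at an unadjusted p under 0.05. Of 16 primitive endoderm genes 7 were detected on all arrays and 3 on none (Foxa2, Ttr and Afp), with Dab2 alone called in the fit without the block, lower in uninduced Ncl-2 cells by 2.18 (adjusted p = 0.019, lost when any 1 of 5 arrays was left out, up to 0.101). With the block 2 of these genes were higher with Tc in Ncl-1 and 2 higher and 1 lower in Ncl-2, and between uninduced lines 1 higher and 1 lower and 1 higher and 2 lower. The block shares over all genes with Tc are given above. Between uninduced lines they were 4.11% and 5.76% higher and 4.51% and 6.43% lower. Of 14 fibroblast and feeder genes 1 was detected on all arrays and 4 on none (Lum, Dcn, Twist2 and Fap), and 0 of 3 kept passed (0 or 1 at an unadjusted p under 0.05, and with the block 1 lower with Tc in Ncl-1 and 1 higher in Ncl-2). Whether other cell types take part in the levels of Dppa3, Rhox6 or Rhox9 was not tested.

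Across the 18 arrays the 3 genes went together to different degrees, as a description over arrays that share lines, treatments and replicate numbers. After subtraction of each replicate number's mean, Pearson's r was 0.92 between Rhox6 and Rhox9, 0.82 between Dppa3 and Rhox9 and 0.70 between Dppa3 and Rhox6. Rhox6 was detected on only 8 of the 18 arrays, every EGFP array among them. All r values of Rhox6, and its list of similar genes, therefore rest in large part on undetected signals in the nucleolin lines. The genes most like Dppa3 were Epha1 (r = 0.95), Capg (0.94), Tmod4 (0.93), Ccdc189 (0.93) and Mcrip1 (0.92). Without the subtraction r was 0.78 for Epha1 and 0.79 for Capg, and only Tmod4 and Mcrip1 stayed among the 5 highest. Epha1 was detected on 0 of 3 arrays in each uninduced nucleolin group and 1 of 3 in Ncl-1 +Tc, so its r rests in part on undetected signals. Epha1, an ephrin receptor, and Capg, which caps actin filaments, lie on chromosome 6, and Capg was lower between uninduced lines (-1.42 and -1.25, SE 0.54) and higher with Tc (1.32 in both lines). The genes most like Rhox6 were Kbtbd2, Cpn1, Zfp212, Emc6 and Fbxl14 (r = 0.93 to 0.95), and those most like Rhox9 were Dhrs11, Fbxl14, Zfp212, Sar1b and Zbtb32 (0.93 to 0.97). Without the subtraction only Kbtbd2 and Cpn1 stayed among the 5 highest for Rhox6, and only Dhrs11 for Rhox9. Kbtbd2 had -1.11 and -1.0 between uninduced lines and 0.19 and 0.05 with Tc (SE 0.17). Of the 25 genes most like each, 6 for Dppa3, 14 for Rhox6 and 10 for Rhox9 lie on chromosome 6, which holds 4.69% of all genes, and 6, 4 and 9 on chromosome 11, which holds 8.77%.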

How the data were processed

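The authors deposited non-normalized probe intensity with a detection p-value for every probe on every array, and a second intensity table that had been normalized. Per the submitters' processing notes GenomeStudio 2010.1 was used; the sources used here do not give the background and normalization options. Both tables kept the same rank order within each array. The first table was background corrected and quantile normalized with limma 3.58.1 (normexp with negative controls inferred from the detection p-values, offset 16; R 4.3.3) and taken to log2. Of 45281 probes, 19154 were kept, with a detection p under 0.05 in every replicate of some group. GEO's platform annotation gave 1 symbol to 34885 probes, several to 18 and none to 10378. The kept probe of highest mean signal stood for each of 10557 genes. Chromosomes came by Entrez identifier from RefSeq genes on assembly GRCm38.p6, which matched 34807 named probes. No pair of arrays held identical values.

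A linear model with 6 group means was fitted over 18 arrays (limma lmFit and eBayes, two-sided, Benjamini-Hochberg over all genes, threshold 0.05). SEs are those of this fit. Replicate numbers pair the arrays: deviations from group means correlated at 0.30 to 0.96 (median 0.71) over all 45 same-number pairs, so fits with the number as a block are given where calls or counts change. On data simulated for the Ncl-1 Tc comparison over 10557 genes, the fit recovered 29 of 100 genes changed by 1 and 70 of 100 changed by 2 (log2), with 4 false calls. The simulated noise was independent between genes and arrays and had no replicate effect. These figures check the code and do not give the recovery or false calls in the real arrays.

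Dppa3, Rhox6 and Rhox9 and the 13 context lists were chosen with earlier results of these data known. From the lists, genes are named that passed the threshold with groups that do not overlap, at most 4 per list and comparison. Tcstv1 and Zfp352 are named besides. All measured Rhox and Dppa genes and fixed pluripotency and DNA methylation genes are named whatever their values, as are the 5 genes of highest r for each member. Precision is limited by the number of arrays.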

Additional observations from a re-analysis of the deposited data

Results flagged for a closer look

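For 2 of 155 context genes the change with Tc differed between the control line and both nucleolin lines in a test of the difference itself. Tfap2c, the germ cell and trophoblast transcription factor, changed more in the Ncl-1 line than in the EGFP line by 2.98 ± 0.65 (log2, SE, limma adjusted p = 0.0291), and likewise for Ncl-2 by 2.90 ± 0.65 (adjusted p = 0.0323). Krt7, the simple epithelial keratin, did so by 3.41 ± 0.67 (adjusted p = 0.0159) and 4.07 ± 0.67 (adjusted p = 0.00515). The count depends on the pairing of arrays: with the replicate block 11 of the 155 passed in both lines, namely Apobec1, Cbx3, Fbxo15, Krt19, Krt7, Lin28a, Mov10l1, Phlda2, Tcl1, Tcstv1 and Tfap2c. Between the nucleolin lines the change with Tc differed for 0 of 10557 genes, with or without the block. A gene called in only 1 nucleolin line is thus not shown to respond unequally in them.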

How the results depend on the processing

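Under the alternatives run (the authors' normalized table, no background correction, an offset of 50, median scaling, a detection p below 0.01, no detection filter, the mean of all kept probes, the replicate block, each array or each replicate number left out), Dppa3, Rhox6 and Rhox9 stayed lower in both uninduced nucleolin lines, and Dppa3 and Rhox9 above 0 with Tc in both. The detection settings, the mean of probes and the replicate block could not move these values. Each of these genes has 1 probe, and every group holds every replicate number. These differences also chose the genes, so the list of alternatives is a description. The Dppa3 difference ranged from -3.27 to -2.63 (Ncl-1) and -2.79 to -1.90 (Ncl-2), and its change with Tc from 1.84 to 2.73 and 1.83 to 2.65. The Rhox9 difference between the uninduced nucleolin lines crossed 0 (-0.05 to 0.26). The Rhox6 values that follow are set by undetected signals. The authors' table gave Rhox6 -1.39 (Ncl-1) and -1.33 (Ncl-2) between uninduced lines. Without background correction these were -0.80 and -0.74, Rhox9 had -1.29 and -1.36, and its change with Tc in Ncl-2 was 0.60. With the offset of 50 the same values were -0.61, -0.58, -1.27, -1.33 and 0.59. A larger floor pulls dim signals together by construction. Without replicate 1 in all groups the Rhox9 change in Ncl-2 was 0.53, and without replicate 2 it was 1.15.

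Numbers of genes called depended on pairing. The replicate block raised them from 857 to 2819 (Tc, Ncl-1), 964 to 2842 (Tc, Ncl-2), 104 to 910 (uninduced Ncl-1 against EGFP) and 98 to 1287 (uninduced Ncl-2 against EGFP), and those of the 155 context genes from 14 to 48, 19 to 51, 1 to 16 and 4 to 28. It left the EGFP Tc comparison at 0 (13 genes at an unadjusted p under 0.05, 75 with the block) and the comparison of uninduced nucleolin lines at 0 (64, and 511 with the block). Context counts were also 9 with median scaling (Tc, Ncl-1), 2 with the authors' table (uninduced Ncl-1), and 2 without the detection filter or with the mean of all probes (uninduced Ncl-2). Leaving out single arrays gave 524 to 923, 535 to 1055, 16 to 126 and 15 to 117 genes called, and 4 to 16, 9 to 22, 0 to 2 and 0 to 5 context genes. The lowest counts came without replicate 2 of Ncl-1 -Tc, replicate 1 of Ncl-2 +Tc and, for both line comparisons, replicate 1 of EGFP -Tc.

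Without replicate 1 in all groups 180, 181, 0 and 0 genes were called (context 1, 2, 0 and 0), and without replicate 2 it was 117, 100, 0 and 0 (context 0, 1, 0 and 0). These fits have fewer arrays. Without replicate 3 there were 1678 (Tc, Ncl-2), 233 and 241 (uninduced lines against EGFP) and 3 between the uninduced nucleolin lines, with 37, 6 and 11 context genes. The cause of that gain was not tested. Chosen after seeing the data, the chromosome 6 median was -0.48 to -0.39 in Ncl-1 and -0.47 to -0.40 in Ncl-2 under the authors' table, no background correction, median scaling and without replicate 3.

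Calls of named genes were also lost beyond those given with each gene. Septin6 was lost under the authors' table, no background correction, the offset of 50, median scaling, no detection filter and the mean of all probes (adjusted p up to 0.0947). Tdrd5 in Ncl-2 was lost under the first 5 of these (up to 0.0995), and in Ncl-1 under median scaling (0.0652). The authors' table also ended the calls of Ifitm1 (0.0523), Mageb4 (0.0892), Stag3 (0.0718), Ct55 in Ncl-1 (0.139) and Pramel16 in uninduced Ncl-2 (0.0507). Median scaling also ended Ifitm1 (0.121), Was (0.199), and Tdpoz2 (0.051) and Krt19 (0.0622) in Ncl-1. The mean of probes also ended Ifitm1 (0.262), Mageb4 (0.054) and Map7d2 (0.0696 and 0.0574). Without the detection filter Tdpoz2 (0.0607) and Krt19 (0.0555) in Ncl-1, Ct55 in Ncl-1 (0.066) and Pramel16 in uninduced Ncl-2 (0.0513) were lost. Tdpoz2 in Ncl-1 and Pramel16 in uninduced Ncl-2 were also lost without background correction (0.0554 and 0.0908) and with the offset of 50 (0.0545 and 0.101), as was Krt19 in Ncl-1 with the offset (0.0578). Most calls of named list and X-linked genes were lost without a whole replicate number. Of the calls examined in this way, only Krt7 in both lines and Lin28a in Ncl-2 stayed without replicate 1, and only Krt7 in Ncl-2 without replicate 2. Without replicate 3 every Cbx3 call (0.0764 to 0.121), both of Rab33a (0.0706 and 0.0581), Was (0.0707), Ifitm1 (0.0678) and Mageb4 (0.0877) were lost. Tdrd5 in Ncl-2 (0.0769), and Tdpoz2 (0.0686) and Krt19 (0.0587) in Ncl-1, were lost too.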
